A study of Homo sapiens with 11 samples.

Results

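The genes described here are TCN1 and 9 other genes that handle vitamin B12 (cobalamin) and its cofactors: TCN2, CD320, LMBRD1, MMACHC, MTR, MTRR, MMAA, MMAB and MMUT. TCN1 was chosen by its measured values, as the named gene with the largest rise at 48 h after transfection of an siRNA against MASTL. The other 9 were listed for their known function. By the platform annotation, with symbols updated through Entrez numbers, the 10 genes had 14 of the 47321 probes on the array, and they are 10 of 20046 named genes with a probe. Of these 14 probes, 13 lay above the noise limit of the arrays, 7.409 on the log2 scale, on at least 2 arrays, and each of the 10 genes had at least 1 such probe.

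RNA came from MDA-MB-231, a human triple-negative breast adenocarcinoma cell line, on 11 Illumina 1-colour bead arrays. Cells received either AllStars Neg. Control siRNA or the MASTL siRNA Hs_MASTL_6, each with the lipid reagent Lipofectamine RNAiMAX, and were harvested for RNA at 24 h or 48 h. This gave 4 groups: control siRNA at 24 h (3 arrays), MASTL siRNA at 24 h (2 arrays), control siRNA at 48 h (3 arrays) and MASTL siRNA at 48 h (3 arrays). All values are the log2 values that the authors normalized and deposited, and the number of arrays limits their precision. Replicates carry numbers in the labels, with no word on whether each was its own culture, and the spread that p-values rest on may therefore be technical. A single MASTL siRNA was used, so an effect of lower MASTL cannot be told apart from other effects of this siRNA.

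Cobalamin in body fluids travels on carrier proteins. TCN1 (haptocorrin) is a secreted carrier known from saliva and from the granules of neutrophils, while TCN2 is the plasma carrier whose complex with cobalamin is taken up by the receptor CD320. After uptake the complex is broken down in lysosomes, LMBRD1 takes part in moving cobalamin out to the cytosol, and MMACHC strips its upper ligand. The vitamin then serves MTR in the cytosol, which remakes methionine from homocysteine with MTRR as its repair partner. It also serves MMUT in mitochondria, which needs adenosylcobalamin made by MMAB and loaded with the help of MMAA.

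The siRNA is shown because all comparisons rest on it, and the promoters of TCN1 and MTR as examples that differ widely in their number of CG. The siRNA sequence is as the labels give it. Each promoter runs from 250 bases before to 50 bases after the gene's start (RefSeq, GRCh38.p14, 300 bases), at chr11:59866438-59866737 on the minus strand for TCN1 and at chr1:236795031-236795330 on the plus strand for MTR. Capitals mark each CG.
MASTL siRNA: acgccttattctagcaaatta
TCN1 promoter: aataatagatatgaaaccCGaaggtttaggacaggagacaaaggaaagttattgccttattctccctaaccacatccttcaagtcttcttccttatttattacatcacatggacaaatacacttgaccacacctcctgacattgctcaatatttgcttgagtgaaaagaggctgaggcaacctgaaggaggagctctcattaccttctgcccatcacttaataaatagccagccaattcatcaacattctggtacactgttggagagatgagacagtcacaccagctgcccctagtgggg
MTR promoter: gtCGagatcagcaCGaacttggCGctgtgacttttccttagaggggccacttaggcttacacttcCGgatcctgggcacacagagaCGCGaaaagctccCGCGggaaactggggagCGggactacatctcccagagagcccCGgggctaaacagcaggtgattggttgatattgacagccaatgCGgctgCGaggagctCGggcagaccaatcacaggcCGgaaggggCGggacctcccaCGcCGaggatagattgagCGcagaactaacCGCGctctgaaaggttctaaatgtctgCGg

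The TCN1 promoter holds 1 CG and the MTR promoter 21. Of the 10 genes, all but TCN2 and MTRR had a promoter in the RefSeq table. Of these 8, the 7 other than TCN1 held 17 (LMBRD1) to 36 (MMAA) CG. Over 27305 promoters, 1 a gene, the median count was 14, and 11.5% held no more CG than TCN1. The letters TATAAA, searched on both strands, were in 11.95% of all promoters and in 0 of the 8, and CCAAT, searched on both strands, was in 35.7% of all and in those of TCN1, MMACHC, MTR, MMUT and MMAB. These are matches of letters only.

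MASTL itself was lower in the MASTL siRNA groups at both times. MASTL was 8.71 ± 0.054 (SD, n = 3) under control siRNA and 7.65 ± 0.053 (n = 2) under MASTL siRNA at 24 h, and 8.52 ± 0.18 against 7.58 ± 0.077 (n = 3 each) at 48 h (limma adjusted p = 0.00137 and 0.00117). Within a group, the correlation across features of any pair of arrays was 0.9904 to 0.9969. Of the line's markers, VIM, CD44, CAV1, ANXA1 and KRT18 lay above the noise limit on all 11 arrays and SPARC on 1. Of 6 luminal breast markers, ESR1 was above the limit on 1 array and PGR and CDH1 on 0, while GATA3, FOXA1 and ERBB3 were above it on all 11 with means of 7.56 to 7.84. Of 8 leukocyte and endothelial markers with a probe, PTPRC, CD3E, MPO, ELANE and CDH5 were above the limit on 0 arrays, ITGAM on 2, and CD14 and PECAM1 on 11. The 3 of them that were tested differed by -0.31 to -0.0032 at 48 h and 0 were called by limma at either time, and their part in the results was not tested.

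TCN1 (chr11:59852808-59866487, GRCh38.p14 as for all genes below, probe ILMN_1768469) was above the noise limit on all 11 arrays and stood highest in the 48 h MASTL siRNA group. At 24 h its log2 value was 7.67, 7.97 and 7.57 under control siRNA (replicates 1, 2 and 3) and 7.85 and 7.75 under MASTL siRNA (replicates 1 and 3). The 24 h MASTL siRNA arrays lay inside the range of the controls. At 48 h it was 8.09, 8.01 and 7.75 under control siRNA and 9.46, 9.26 and 8.82 under MASTL siRNA (replicates 1, 3 and 4 in each). All 3 MASTL siRNA arrays at 48 h were above every other array, and replicate 4 was the lowest of its group under both siRNAs.

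**Figure D1:**
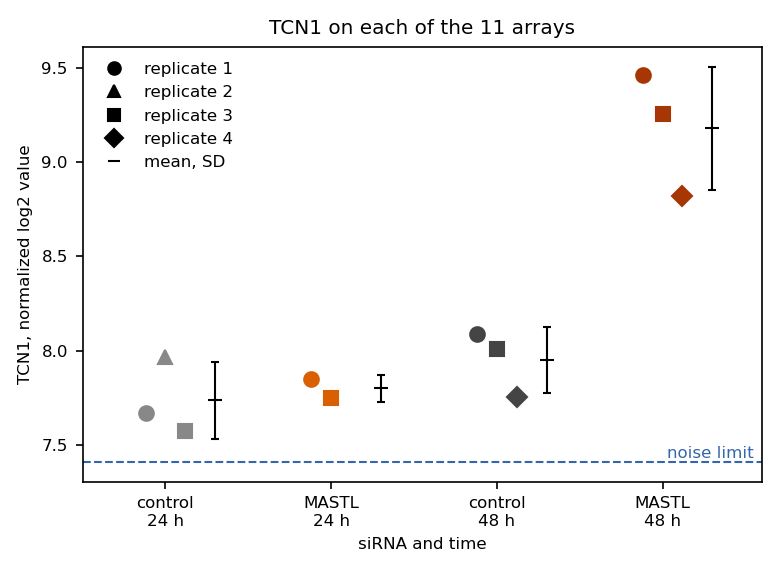
TCN1 log2 value (y axis) on each of the 11 arrays, by siRNA and time (x axis); symbols give the replicate number, bars the mean and SD of a group, and the dashed line the noise limit of 7.409. The 48 h MASTL siRNA arrays sit between 8.82 and 9.46, and the other 8 arrays between 7.57 and 8.09.

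The group means of TCN1 were 7.74 ± 0.20 (SD, n = 3) and 7.80 ± 0.069 (n = 2) at 24 h, and 7.95 ± 0.18 and 9.18 ± 0.33 (n = 3 each) at 48 h. The 48 h difference of 1.23, or 2.35-fold, was the value that chose the gene and is given as a description. The next largest rise among named genes was that of PAPPA, a secreted protease, at 1.10. With the noise centre of 7.357 subtracted on the linear scale and an offset of 16 added before taking logs, the 48 h difference was 2.14, or 4.41-fold. The size of the difference thus depends on how the array background is treated, the offset included. At 24 h, where the choice used no values, the difference was 0.06 (SE 0.19, 95% interval -0.36 to 0.49, limma adjusted p = 0.968). Its SE, interval and p rest on a spread pooled over all arrays, and so also on the 48 h arrays that chose the gene. Between 24 h and 48 h the mean of TCN1 was higher by 0.21 under control siRNA and by 1.38 under MASTL siRNA, both given without a test since the 48 h arrays entered the choice.

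Among arrays of the same replicate number, TCN1 was higher under MASTL siRNA by 1.37, 1.25 and 1.07 at 48 h (replicates 1, 3 and 4) and by 0.18 and 0.17 at 24 h (replicates 1 and 3). The 24 h difference did not pass with the replicate number as a block within each time (0.18, limma adjusted p = 0.287). With this block the 24 h difference rests on the pairs of replicates 1 and 3, since control replicate 2 has no MASTL siRNA partner. From 24 h to 48 h, replicates 1 and 3 differed by 0.42 and 0.43 under control siRNA and by 1.61 and 1.51 under MASTL siRNA. Across times the numbers gave no sign of pairing arrays (correlations of deviations from group means of -0.205 to 0.119). With replicates 1 and 3 alone, these correlations are too few to decide this. These differences also leave out control replicate 2 at 24 h and replicate 4 at 48 h.

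Of the other 9 genes, 0 were called at either time by limma at an adjusted p under 0.05 without a block, and 0 had an unadjusted p under 0.05. Over all 22143 features tested (the probe of highest mean for each named gene, and each probe without a single gene name), 0.894% were called at 24 h and 2.34% at 48 h. Of these features, 2012 had an unadjusted p under 0.05 at 24 h and 3089 at 48 h. Including TCN1, the changes of the 10 genes ran from -0.19 to 0.16 at 24 h, with a median of 0.02 against 0.0030 over all features, and from -0.35 to 1.23 at 48 h, with a median of 0.07 against 0.0012. At 24 h 5 of the 10 changes were positive, and at 48 h 6 were. In bulk RNA, a change in the share of cells that express a gene and a change in RNA per cell cannot be told apart.

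**Figure D2:**
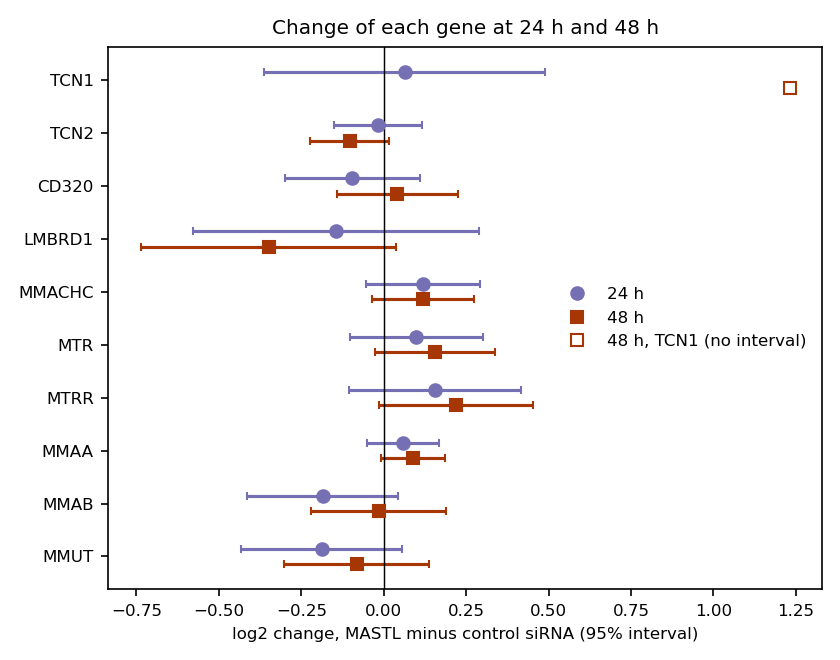
Log2 change of each gene under MASTL siRNA (x axis, MASTL minus control siRNA) at 24 h (circles) and 48 h (squares), with 95% intervals from limma; the open square is TCN1 at 48 h, which chose the gene and has no interval. TCN1 at 48 h lies at 1.23, and all other points lie between -0.35 and 0.22, each with an interval that includes 0.

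At 48 h the arrays of 1 replicate number deviated from their group means together, so a fit with the replicate number as a block within each time was set beside the fit without it. In that fit 4 of the other 9 genes were called at 48 h, LMBRD1 lower and MTRR, MTR and MMACHC higher. It called 12.2% of all features, 6.31% as higher and 5.88% as lower. Leaving out 1 of the 3 pairs in turn, chosen as a check after the data were seen, left 2 genes called without replicate 1 (LMBRD1 and MTRR, of 5.83% of features), 1 without replicate 3 (MTRR, 5.65%) and 1 without replicate 4 (MTRR, 6.44%). At 24 h this fit called 0 of the 9 and 2.91% of features, with limma at the same threshold. An unadjusted p under 0.05 was found there for 3 of the 10 genes, TCN1 included, and for 3546 of the 22143 features.

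**Figure D3:**
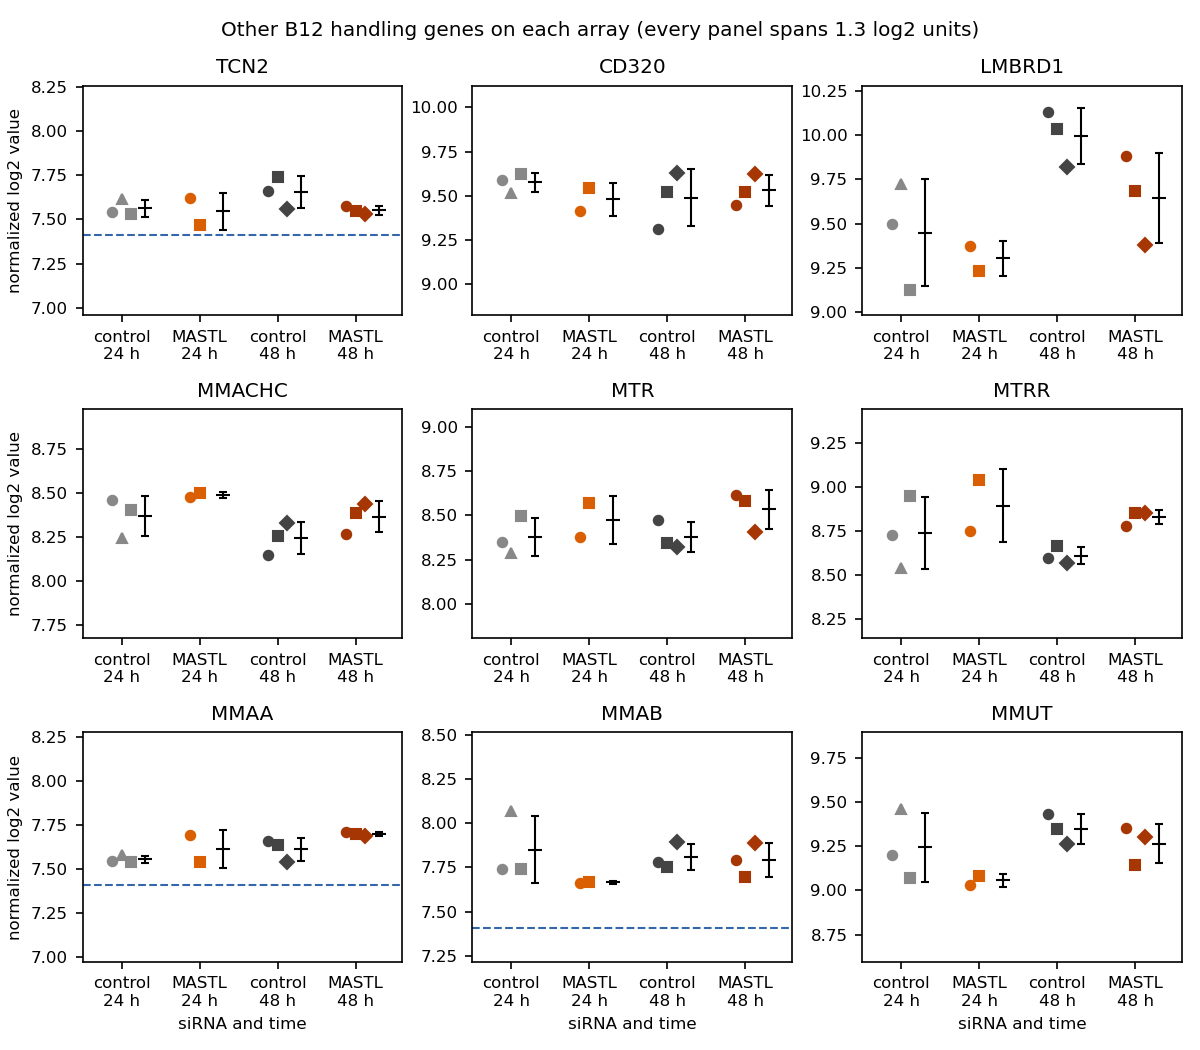
Log2 value (y axis) of the other 9 genes on each array by siRNA and time (x axis), with circles, triangles, squares and diamonds for replicates 1, 2, 3 and 4, the mean and SD of each group and the noise limit where it falls in the panel. Each panel spans the same range of log2 units; MMAA and MTRR are the genes here whose 48 h groups do not overlap.

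The plasma carrier TCN2 (chr22:30607174-30627271), whose probe lay close above the noise limit on all 11 arrays, differed little between groups. Its log2 values at 48 h were 7.66, 7.74 and 7.56 under control siRNA and 7.58, 7.55 and 7.53 under MASTL siRNA, and at 24 h they were 7.54, 7.62 and 7.53 against 7.62 and 7.47. The groups overlapped at both times. The change was -0.02 at 24 h (limma adjusted p = 0.974) and -0.10 at 48 h (SE 0.053, 95% interval -0.22 to 0.02, adjusted p = 0.446), and all 3 pairs at 48 h were negative (-0.08, -0.20 and -0.03). With the block within each time it did not pass either (adjusted p = 0.207).

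CD320 (chr19:8302127-8308358), the receptor for the TCN2 complex, was at 9.59, 9.51 and 9.62 under control siRNA and 9.41 and 9.54 under MASTL siRNA at 24 h. The 48 h values were 9.31, 9.52 and 9.63 against 9.45, 9.52 and 9.62. The 48 h groups covered nearly the same range. The changes were -0.10 (SE 0.090, limma adjusted p = 0.862) and 0.04 (SE 0.080, 95% interval -0.14 to 0.22, adjusted p = 0.906).

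LMBRD1 (chr6:69674010-69797010), the lysosomal membrane protein, had the largest SD within a group among the 9 genes, 0.30 in the 24 h controls. Its values at 24 h were 9.50, 9.72 and 9.12 under control siRNA and 9.37 and 9.23 under MASTL siRNA. At 48 h they were 10.14, 10.04 and 9.82 under control siRNA and 9.88, 9.68 and 9.38 under MASTL siRNA. The 48 h groups overlapped only through control replicate 4, and within each replicate number the MASTL siRNA array was the lower one, by -0.25, -0.35 and -0.44.

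Without a block, the 48 h change of LMBRD1 was -0.35 (SE 0.17, 95% interval -0.74 to 0.04, limma adjusted p = 0.421), and with the block within each time it was -0.35 (SE 0.055, adjusted p = 0.0148). The call was lost without the pair of replicate 3 (adjusted p = 0.0796) or that of replicate 4 (0.0728). At 24 h the change was -0.14 (SE 0.19, adjusted p = 0.914). From 24 h to 48 h LMBRD1 was higher under control siRNA by 0.55 (SE 0.17, adjusted p = 0.377) and under MASTL siRNA by 0.34 (SE 0.19, adjusted p = 0.614). Neither time comparison passed the test.

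MMACHC (chr1:45500300-45513382), the cytosolic chaperone that strips the upper ligand from cobalamin, was at 8.46, 8.24 and 8.41 under control siRNA and 8.47 and 8.50 under MASTL siRNA at 24 h. The corresponding 48 h values were 8.15, 8.25 and 8.33 against 8.27, 8.39 and 8.44. The groups did not overlap at 24 h and overlapped at 48 h, while each 48 h pair was higher under MASTL siRNA by a similar amount (0.12, 0.13 and 0.11). The change was 0.12 at 24 h (SE 0.076, limma adjusted p = 0.761) and 0.12 at 48 h (SE 0.068, adjusted p = 0.509; with the block within each time SE 0.025, adjusted p = 0.0331, and 0.115 to 0.158 without 1 pair).

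**Figure D4:**
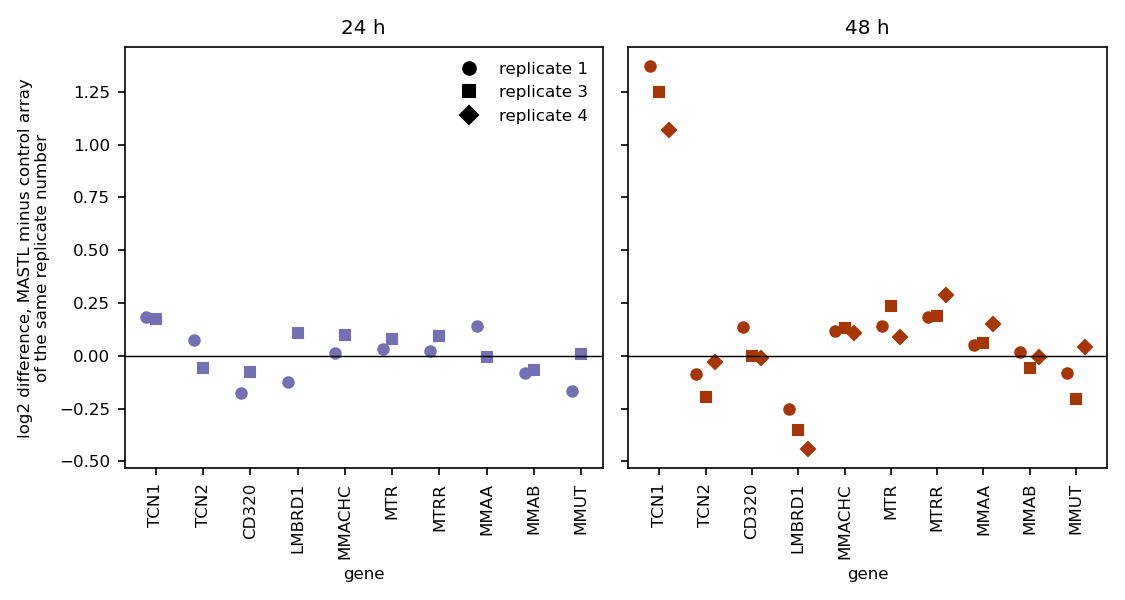
Log2 difference between the MASTL and control siRNA arrays of the same replicate number (y axis) for each gene (x axis) at 24 h (left, replicates 1 and 3) and at 48 h (right, replicates 1, 3 and 4). At 48 h the 3 pairs of TCN1 lie between 1.07 and 1.37, those of LMBRD1 between -0.44 and -0.25 and those of MTRR between 0.18 and 0.29.

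In the methionine branch, MTRR (chr5:7850859-7901113), the reductase that reactivates MTR, was higher at 48 h under MASTL siRNA and was called in some fits with a block and not in others. Its brightest probe read 8.59, 8.66 and 8.57 under control siRNA and 8.78, 8.85 and 8.85 under MASTL siRNA at 48 h, so the groups did not overlap. At 24 h it read 8.73, 8.54 and 8.95 against 8.75 and 9.04, and there the groups overlapped. The 48 h change was 0.22 (SE 0.10, 95% interval -0.01 to 0.45, limma adjusted p = 0.395) without a block and 0.22 (SE 0.031, adjusted p = 0.00991) with the block within each time, and the 24 h change was 0.16 (SE 0.11, adjusted p = 0.807). Leaving out 1 of the 48 h pairs gave the fit with the block within each time an adjusted p between 0.0439 and 0.0478, and with the replicate number as 1 block over both times it was not called (adjusted p = 0.0544).

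The other probes of MTRR did not show the same difference. The second (ILMN_2377977), annotated to another transcript of the gene, read 7.67, 7.75 and 7.69 under control siRNA and 7.73, 7.75 and 7.61 under MASTL siRNA at 48 h, a difference of -0.0011. The third (ILMN_1702684) was above the noise limit on 0 arrays and was the only one of the 14 probes left out of the tests.

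MTR (chr1:236795281-236903981), methionine synthase, read 8.35, 8.29 and 8.49 under control siRNA and 8.38 and 8.57 under MASTL siRNA at 24 h. At 48 h it read 8.48, 8.34 and 8.32 against 8.62, 8.58 and 8.41, and the groups overlapped through control replicate 1. All 3 pairs at 48 h were positive (0.14, 0.24 and 0.09). The 48 h change was 0.16 (SE 0.080, 95% interval -0.03 to 0.34, limma adjusted p = 0.452), or with the block within each time adjusted p = 0.0395 (0.0592 to 0.145 without 1 pair), and the 24 h change was 0.10 (SE 0.089, adjusted p = 0.852).

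In the mitochondrial branch, MMAA (chr4:145619385-145660033) is a GTPase that takes part in loading MMUT with its cofactor. It read 7.66, 7.64 and 7.54 under control siRNA and 7.71, 7.70 and 7.69 under MASTL siRNA at 48 h. At 24 h it read 7.55, 7.58 and 7.54 against 7.69 and 7.54. The 48 h groups did not overlap, by a small margin. The change was 0.06 at 24 h (SE 0.048, limma adjusted p = 0.835) and 0.09 at 48 h (SE 0.043, 95% interval -0.0086 to 0.19, adjusted p = 0.415), and the block within each time did not make it a call (adjusted p = 0.227).

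MMAB (chr12:109553715-109573504), which makes adenosylcobalamin, read 7.74, 8.07 and 7.74 under control siRNA and 7.66 and 7.67 under MASTL siRNA at 24 h, and the groups did not overlap. By 48 h the values were 7.78, 7.75 and 7.89 against 7.79, 7.69 and 7.89. The change was -0.19 at 24 h (SE 0.10, limma adjusted p = 0.678) and -0.02 at 48 h (adjusted p = 0.972). Control replicate 2 was the high array at 24 h. The second probe of MMAB lay between 7.43 and 7.55 on all arrays, and its groups overlapped at both times.

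MMUT (chr6:49430360-49463253), methylmalonyl-CoA mutase, read 9.20, 9.46 and 9.07 under control siRNA and 9.03 and 9.08 under MASTL siRNA at 24 h. At 48 h it read 9.43, 9.35 and 9.26 against 9.35, 9.14 and 9.30. The groups overlapped at both times. The change was -0.19 at 24 h (SE 0.11, limma adjusted p = 0.706) and -0.08 at 48 h (SE 0.096, 95% interval -0.30 to 0.14, adjusted p = 0.809), and the second probe lay at 7.33 to 7.41, at the noise limit.

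Counted over all 10 genes, the groups did not overlap for MMACHC (higher) and MMAB (lower) at 24 h, 1 gene in each direction, where 13.4% of all features were higher without overlap and 11.7% lower. At 48 h TCN1, MTRR and MMAA were higher without overlap and 0 genes lower, where 10.2% of features were higher and 8.55% lower. TCN1 counts among these 3 by the way it was chosen.

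Averaged over both times, 0 of the other 9 genes were called by limma without a block, against 4.67% of features. An unadjusted p under 0.05 was found for 3 of them (MTRR, MMACHC and MMAA) and for 3701 of all 22143 features. The averaged change was 0.19 for MTRR (SE 0.077, adjusted p = 0.257), 0.12 for MMACHC (SE 0.051, adjusted p = 0.283) and 0.07 for MMAA (SE 0.032, adjusted p = 0.296). With the block within each time, MTRR (0.14, adjusted p = 0.0180) and MMACHC (0.09, adjusted p = 0.0400) were called, against 13.5% of features. That block takes the replicate numbers as pairs at 24 h too, where the pairs are too few to decide this. It also leaves the unpaired 24 h control replicate 2 out of the change. The difference between the 48 h and the 24 h change was called for 0 of the 9 and for 0% of features with either fit, with 670 features at an unadjusted p under 0.05 without a block. For time, limma without a block called 0% of features under control siRNA (2186 had an unadjusted p under 0.05, LMBRD1 among them) and 0.00452% under MASTL siRNA (1 feature, no member of the 10; 2118 had an unadjusted p under 0.05).

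The other genes around cobalamin, by lists drawn up by function with earlier results of these data known, gave 1 call. Of 10 further genes of cobalamin uptake, transport and regulation, 6 were tested and 0 called at either time, with medians of -0.0083 at 24 h and -0.04 at 48 h. The 2 of highest level were HCFC1, a transcriptional coregulator that controls MMACHC (changes of 0.10 and -0.0013 at 24 h and 48 h), and MMADHC, which sorts cobalamin between the cytosolic and mitochondrial branches (-0.10 and -0.13). CBLIF, gastric intrinsic factor, and LRP2, an endocytic receptor, had 0 arrays above the noise limit. CUBN, from the same list, was above it on 11 arrays, with a mean of 7.45 close to the limit. Of 8 genes of the propionate and methylmalonyl route, which feeds MMUT, all 8 were tested and 0 called, with medians of 0.03 and -0.0051. The brightest were PCCB, a subunit of propionyl-CoA carboxylase (0.08 and 0.08), and SUCLG2, a subunit of succinyl-CoA synthetase (-0.06 and -0.06).

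Of 12 genes of the methionine cycle and transsulfuration, into which MTR feeds methionine, 7 were tested and 0 called, with medians of -0.06 and -0.13. MAT2A, which makes S-adenosylmethionine, differed by 0.16 and 0.02 and did not pass the test. AHCY, which splits S-adenosylhomocysteine, differed by 0.11 and 0.20, and at 48 h it was called as higher only with the block within each time (limma adjusted p = 0.0441). BHMT, which remakes methionine without cobalamin, and CBS, which draws homocysteine into transsulfuration, were above the noise limit on 0 arrays.

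Of 18 genes of the folate cycle and folate uptake, which supplies the methyl group that MTR transfers, 12 were tested and 1 was called, GGH as lower at 48 h, with list medians of 0.0037 and -0.0073. GGH encodes gamma-glutamyl hydrolase, which trims folate polyglutamates. Its values at 48 h were 10.31, 10.05 and 9.95 under control siRNA and 9.75, 9.68 and 9.58 under MASTL siRNA, with no overlap, and its means at 24 h were 9.87 ± 0.095 (SD, n = 3) and 9.83 ± 0.0036 (n = 2). The 48 h change was -0.43 (SE 0.089, limma adjusted p = 0.0433; with the block within each time 0.00709). The call was lost when any single array other than 48 h control replicate 4 was left out, and the gene's other probe differed by -0.13 (adjusted p = 0.626).

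Secretory granule genes of neutrophils and glands, the setting in which TCN1 is best known, gave 0 calls at either time. Of 10 such genes 5 were tested, with changes between -0.05 and 0.04 at 24 h and between -0.0023 and 0.03 at 48 h. CAMP, OLFM4, CRISP3, CEACAM8 and BPI were above the noise limit on 0 arrays and MMP8 on 2, while LTF and LYZ were above it on 10 each. The brightest were LCN2, an iron-siderophore carrier (-0.01 and 0.00062), and CHI3L1, a secreted chitinase-like protein (0.04 and 0.0047). These values lie close to the noise limit, where small differences cannot be detected.

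The genes on either side of TCN1 on chromosome 11 were also read. STX3, a syntaxin of apical membrane fusion, differed by 0.13 and 0.05 at 24 h and 48 h (48 h limma adjusted p = 0.870), and MRPL16, a mitochondrial ribosomal protein, by 0.19 and 0.20 (adjusted p = 0.126), and neither passed the test at 48 h. CBLIF and OOSP2 were above the noise limit on 0 arrays, MS4A3 on 1 and MS4A6A on 2.

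The named genes whose values followed TCN1 most closely over the 11 arrays were, by Pearson r, DGAT1 (0.960), CCDC92 (0.952), DECR2 (0.941), TMEM170B (0.940), BCKDHB (0.940), SCG2 (0.937), PCOLCE (0.937) and SLC1A1 (0.934). DGAT1 makes triglycerides, DECR2 takes part in peroxisomal fatty acid oxidation, and SCG2 is a granin of secretory granules. Their 48 h changes ran from 0.08 (PCOLCE) to 0.71 (SCG2). The most opposed were ZP3 (-0.961), ASNS (-0.959), OSER1 (-0.958) and ELMO1 (-0.952), with 48 h changes of -0.43, -0.73, -0.24 and -0.18; ASNS is asparagine synthetase. These r describe 11 arrays that share 4 groups, of which the 48 h MASTL siRNA group stands apart in TCN1, and carry no test.

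**Figure D5:**
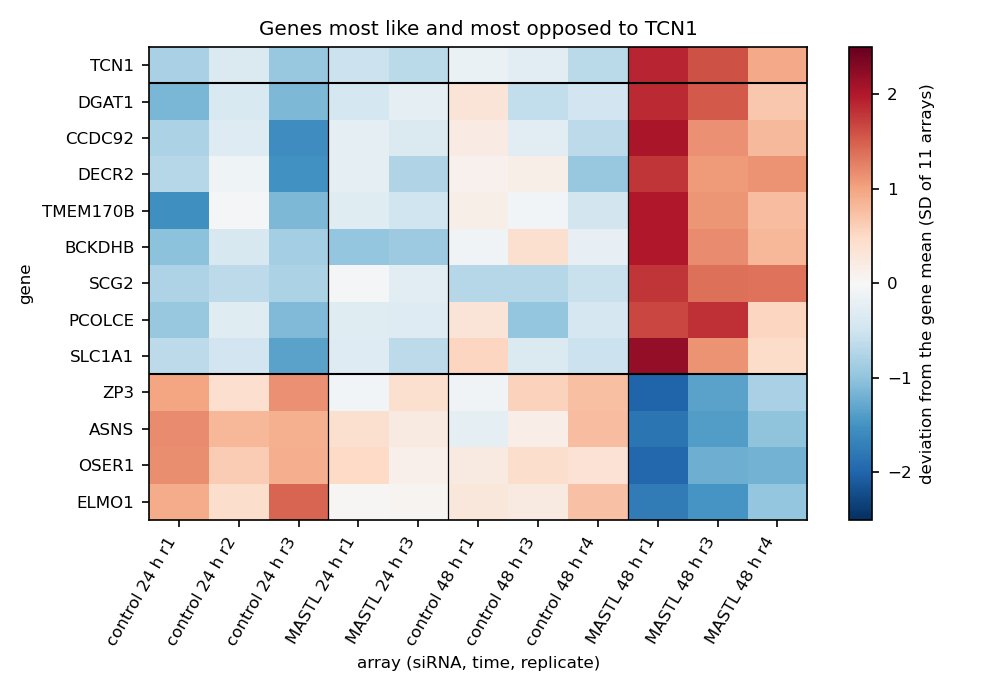
Deviation of each array (x axis) from the gene's mean over the 11 arrays, in SD of the gene (colour), for TCN1 (top row), the 8 genes of highest r with it (middle) and the 4 of lowest r (bottom). The 3 arrays of MASTL siRNA at 48 h are the highest for TCN1, and the 8 genes above the lower line take high values there while the 4 below take low ones.

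Among the 9 other B12 genes, r with TCN1 over the 11 arrays was highest for MMAA (0.789) and MTR (0.562) and lowest for MMACHC (-0.186) and CD320 (-0.193). Taken as deviations from the group means, which removes the siRNA and time, LMBRD1 had r = 0.925 with TCN1, and MMACHC and CD320 had r = -0.855 and -0.788. LMBRD1 and TCN1 were thus high on the same arrays within groups (24 h control replicate 2 was the highest of its group and 48 h replicate 4 the lowest under both siRNAs), while their group means at 48 h differed in opposite directions between the siRNAs. The named genes of highest r in these deviations were BAG3 (0.994), ZSCAN18 (0.993), DENND11 (0.989) and NPTN (0.988). The 11 deviations share the replicate numbers and 4 fitted means, and these values are a description only.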

How the data were processed

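RNA was measured on 11 arrays of MDA-MB-231 cells in 4 groups. The log2 values of 47321 probes were normalized and deposited by the authors, with lumi per the submitters' processing notes (version and settings not given in the sources used here). Every array had nearly the same sorted values (largest difference 0.000698), so they had been normalized between arrays. The log2 scale is taken from the range of 7.24 to 14.51, and with no transform named, folds near the floor may understate the change. A second deposited table (22 columns of values) was not used, since its column names match no sample, and a noise limit replaced the planned background correction and detection p-values.

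The limit, 7.409, is the 95th percentile of the values below the most common value, 7.357, mirrored around it. Probes above it on 2 or more arrays were kept (27314), and each gene took its probe with the highest mean value, giving 22143 features, 14024 of them named. A mean for each group was fitted to all 11 arrays with limma 3.58.1 (lmFit, eBayes) in R 4.3.3, with 7 residual degrees of freedom. Calls are two-sided at a Benjamini-Hochberg adjusted p under 0.05 over all features. The fit was tested on simulated data. Figures were drawn with matplotlib 3.10.9.

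Members and lists were chosen with earlier results of these data known. TCN1 was chosen on the 48 h contrast, so no test of it there is given. From each further list the text names every called gene or, with none, the 2 of highest level, and beyond that the 8 genes most like and 4 least like TCN1, the 4 most like it within groups, and the 3 genes with a probe on each side of it. Other list genes named as near or below the limit were picked after their values were seen. Whether replicate numbers pair arrays was read from the correlation across features of same-numbered arrays' deviations from their group means. At 48 h it was 0.693, 0.549 and 0.773, so the numbers were taken as pairs there (the labels do not state a pairing). At 24 h, 2 pairs (0.104 and 0.470) are too few to decide. Alternatives covered the filter, the choice of probe, cyclic loess, subtraction of the noise centre, the replicate block, each time alone, eBayes settings and leaving out each array.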

Additional observations from a re-analysis of the deposited data

How the results depend on the processing

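The 48 h difference of TCN1, which chose the gene, was 1.09 to 1.41 with single arrays left out and 2.14 with the noise centre subtracted, given as values only. Member counts here are of the other 9 genes. At 48 h a replicate block over both times called 1 (LMBRD1, limma adjusted p = 0.0179, with 8.44% of features called; MTRR had 0.0544), the block within each time 4, and that block without 1 pair 1 to 2. Averaged over both times, 2 were called with the block within each time. For time, the numbers gave no sign of pairing arrays (correlations of -0.205 to 0.119, too few to decide). There the block over both times called 2 under control siRNA, with 11.6% of features called, and 1 under MASTL siRNA, with 7.64%. Features called at 24 h were 361 with the block over both times, 645 with it within each time, 58 from the 24 h arrays alone and 56 to 203 with single arrays left out; at 48 h they were 1869, 2700, 338 and 250 to 570, and 1291, 1252 and 1426 with the block within each time less the pair of replicate 1, 3 or 4. GGH at 48 h ran from -0.51 to -0.33 with single arrays left out and lost its call in 10 of 11 such fits, without the filter (limma adjusted p = 0.0657), with the noise centre subtracted (0.0670) and with 1 time alone (0.127).

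Small changes turned sign. With either block, TCN2 became 0.0095, AHCY -0.00093 and LCN2 0.012 at 24 h. Leaving out 24 h control replicate 2, which has no MASTL siRNA array of its number, gave these same values. With cyclic loess, MAT2A became -0.0033 and LCN2 -0.0016 at 48 h. With the noise centre subtracted, CHI3L1 became -0.0053 at 48 h. With the block less 1 pair, 48 h values turned for CD320 (-0.0055), MMAB (0.0066), HCFC1 (0.024 and 0.074), MAT2A (-0.021), LCN2 (-0.017 and -0.00042) and CHI3L1 (-0.043). With single arrays left out, 24 h changes spanned 0 for TCN1 (-0.017 to 0.18), TCN2 (-0.092 to 0.057), MMAA (-0.019 to 0.13), SUCLG2 (-0.16 to 0.036), AHCY (-0.00093 to 0.18), GGH (-0.082 to 0.013) and LCN2 (-0.027 to 0.012), and 48 h changes for CD320 (-0.046 to 0.11), MMAB (-0.063 to 0.034), HCFC1 (-0.10 to 0.086), MAT2A (-0.11 to 0.15), LCN2 (-0.10 to 0.10) and CHI3L1 (-0.041 to 0.030). Any further cause was not tested. Signal close to the noise limit bounds what TCN2, MMAA and the second probes of MMAB and MMUT can show.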
